A study of Mus musculus with 10 samples.

Results

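The cells described here are mouse kidney cells that carried Havcr1 transcripts and no detected Vcam1 transcript. A cell was counted when its barcode held at least 500 genes and at most 50% mitochondrial unique molecular identifiers (UMIs), at least 2 UMIs of Havcr1, and 0 UMIs of Vcam1, Ptprc, C1qb, Pecam1 and Pdgfrb. Of 52797 cells kept in 10 libraries, 1455 met this rule, and 1438 of them (98.8%) came from the 5 libraries of days 1, 2, 4 and 7 after injury. The cells were chosen by their measured Havcr1, Vcam1, Ptprc, C1qb, Pecam1 and Pdgfrb counts, so the levels of those genes are given as a description only.

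The material was kidney cortex of mice aged 4 weeks, processed as single-cell suspensions by Drop-seq, in which the RNA of each cell is captured on a barcoded bead and its 3′ end is sequenced. There was 1 library of normal kidney, 1 each of days 1, 2 and 4 after acute kidney injury, and 2 each of days 7, 11 and 14. The labels give no kind of injury, strain, sex, genotype or treatment, and do not say whether the libraries of a day came from different animals. The study asked, per its title, whether injury reactivates a developmental programme in adult kidney.

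Havcr1 encodes KIM-1, a membrane receptor that the proximal tubule makes after injury and that binds phosphatidylserine on dying cells. Vcam1 encodes an adhesion molecule for leukocytes that injured proximal cells can also display. In the mm10 genome, Havcr1 (ENSMUSG00000040405.13) lies on the plus strand at chr11:46735080-46779578. Lcn2 (a secreted iron-siderophore carrier), Krt8 (a simple-epithelium keratin) and S100a6 (a calcium-binding protein) are widely used as markers of injured tubule.

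The promoters of 3 genes whose levels moved with the day in these cells are shown because they stand for the groups described further on, a falling proliferation group and a rising antigen-presentation group. Sequences are those of RefSeq on GRCm38.p6, from 250 bases before to 50 bases after the start, written 5′ to 3′ on the strand of the gene. Capitals mark the letters TTTGAA (the cell cycle homology region), CCAAT and CTGATTGG (the Y box of class II promoters), each searched on both strands. CTGATTGG contains the reverse complement of CCAAT, so every Y box also counts as a CCAAT. The first lies at chr11:99024140-99024439 (minus strand), the second at chr17:34287774-34288073 (minus strand) and the third at chr17:34305617-34305916 (plus strand).
Top2a: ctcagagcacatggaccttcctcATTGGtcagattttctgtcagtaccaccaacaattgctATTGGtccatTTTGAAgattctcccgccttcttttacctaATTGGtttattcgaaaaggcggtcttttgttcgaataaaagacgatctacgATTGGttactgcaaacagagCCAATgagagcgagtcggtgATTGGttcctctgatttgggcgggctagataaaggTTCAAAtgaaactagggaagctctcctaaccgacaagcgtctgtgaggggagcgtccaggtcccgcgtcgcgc
H2-Aa: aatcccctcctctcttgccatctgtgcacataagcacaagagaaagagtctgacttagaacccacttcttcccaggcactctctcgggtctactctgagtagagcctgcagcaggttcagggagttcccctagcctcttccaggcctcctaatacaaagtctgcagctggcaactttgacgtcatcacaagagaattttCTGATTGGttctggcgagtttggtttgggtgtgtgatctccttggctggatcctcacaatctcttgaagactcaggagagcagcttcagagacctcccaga
H2-Eb1: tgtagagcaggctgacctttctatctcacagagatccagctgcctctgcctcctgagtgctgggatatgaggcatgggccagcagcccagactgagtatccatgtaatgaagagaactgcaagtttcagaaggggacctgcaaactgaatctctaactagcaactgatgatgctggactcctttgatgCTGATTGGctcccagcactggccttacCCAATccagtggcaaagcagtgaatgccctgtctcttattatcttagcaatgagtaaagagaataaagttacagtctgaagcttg
Among 32851 promoters of the same length, 17.9% held TTTGAA, 37.4% held CCAAT and 4.10% held CTGATTGG. Of the falling genes examined, the promoters of Top2a, Mki67, Cenpf and Smc2 held both TTTGAA and CCAAT, that of Pcna held CCAAT alone, and no match lay in the windows of Lig1. The letters do not separate the groups: Cenpf also held CTGATTGG, the windows of the rising gene Cp and of Havcr1 included one with TTTGAA, and rising Ubd, Ankrd1 and Cp had CCAAT. Such a match describes letters and says nothing about binding.

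The cells were frequent on day 1 and rare in normal kidney and after day 7. They made up 16.7% of day 1 cells (597 of 3568, exact 95% interval 15.5 to 18.0%). The day 2 library held 54 of 4087 (1.32%, 0.994 to 1.72%), and the day 4 library 528 of 6417 (8.23%, 7.57 to 8.93%). The day 7 libraries held 146 of 3621 (4.03%, 3.41 to 4.72%) and 113 of 5154 (2.19%, 1.81 to 2.63%). Day 2 was thus the lowest of these 5 libraries, and the day 7 replicates differed from each other beyond counting error.

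In normal kidney and on days 11 and 14, the 5 libraries together held 17 such cells among 29950 (0.0568%, 0.0331 to 0.0909%). The control held 4 of 6134. One day 11 library held 5 of 5409 and the other 0 of 5283, which allows a share of up to 0.0568%. The day 14 libraries held 2 of 6941 and 6 of 6183. These late and control cells were mostly deep: the 4 control cells had a median of 14333 UMIs, against 2661.5 over all control cells. Of the 17, 13 held exactly 2 Havcr1 UMIs, all 17 held at least 2 UMIs of proximal tubule genes, and none held a UMI of Lcn2. They were too few for a comparison of days 11 or 14 with day 7.

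Depth altered the shares without moving the order of day 1, day 4 and day 7. With each cell thinned to 1000 UMIs and shallower cells left out, the shares were 13.9% on day 1, 1.14% on day 2, 9.85% on day 4, and 5.75% and 3.07% on day 7. Havcr1 UMIs were also found in cells marked by genes of other cell types. Among cells with a UMI of the leukocyte gene Ptprc or of the macrophage gene C1qb, at least 2 Havcr1 UMIs were found in 10.2% on day 1, 1.16% on day 2, 11.99% on day 4, and 6.86% and 2.82% on day 7. The values over all cells were 20.5%, 2.84%, 24.5%, 13.9% and 9.82%. Median depths of the leukocyte-marked and of all cells were 1527.5 and 1438.5 UMIs on day 1, and 2380.5 and 1840 on day 2. The intervals of these shares overlapped on day 2 and in no other of the 5 libraries. Pecam1-marked cells without a Ptprc or C1qb UMI gave 10.497%, 0.433%, 17.0%, 4.04% and 4.04%. Their interval overlapped that of all cells on day 2 and on day 4 (10.53 to 25.2% against 23.5 to 25.6%). In the control and on days 11 and 14, no leukocyte-marked cell held 2 Havcr1 UMIs.

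**Figure D1:**
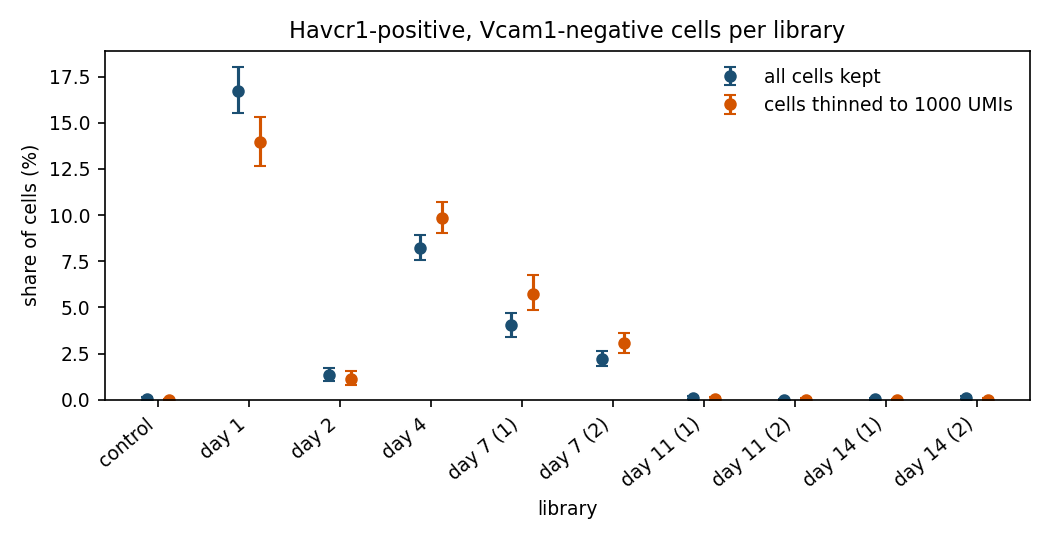
Share of cells (%) that were Havcr1-positive and Vcam1-negative in each of the 10 libraries, with exact 95% intervals as bars, for all cells kept and for cells thinned to 1000 UMIs. Day 1 is highest (16.7% and 13.9%), day 2 is low (1.32% and 1.14%), and the control, day 11 and day 14 libraries lie near 0.

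Most members held few Havcr1 UMIs. The median was 3 UMIs on day 1, 2.5 on day 2, 3 on day 4 and 4 in both day 7 libraries, and the highest single cell held 107, 53, 68, 37 and 33. Just inside the threshold, with exactly 2 UMIs, lay 210, 27, 223, 43 and 33 cells, and just outside it, with 1 UMI, lay 563, 134, 767, 178 and 139. Summed over the cells of a library, Havcr1 stood at 2709 CPM (its UMIs scaled to the same total in each library) on day 1, 929 on day 2, 1571 on day 4, and 3537 and 1704 on day 7.

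The Vcam1-positive counterpart, with the same rule except for at least 1 Vcam1 UMI, grew relative to these cells. Of the Havcr1-positive cells free of the other 4 excluding genes, 11.4% held Vcam1 on day 1 (77 cells), 50% on day 2 (54), 62.8% on day 4 (892), and 63.0% (249) and 74.1% (323) on day 7. Cells thinned to 1000 UMIs gave 4.57%, 31.5%, 40.7%, 54.4% and 51.9%. Median depths differed between the populations, at 2236 UMIs in Vcam1-negative and 4440 in Vcam1-positive cells on day 1, and at 1801.5 and 3901 on day 4. A Vcam1-negative cell can therefore be one in which Vcam1 was not sampled. The part of depth in the contrasts with Vcam1-positive cells was measured only by thinning.

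The label of injured tubule was checked against markers, with tubule cells that held no Havcr1 UMI as the comparison. Those comparison cells had none of the excluding genes and at least 1 UMI of 10 general tubular genes, and numbered 1255, 2197, 1779, 928 and 1426 in the 5 libraries of days 1 to 7. S100a6 went with Havcr1. It stood at 2011, 3686, 2559, 1138 and 2152 CPM in the members and at 562, 388, 434, 729 and 635 CPM in Havcr1-zero tubule cells, so it was higher in the members of each library and the populations did not overlap. The median log2 ratio over libraries was 1.84. At 1000 UMIs per cell, an S100a6 UMI was found in 55.2%, 72.7%, 57.3%, 43.8% and 46.5% of members. Cells with a UMI of the endothelial gene Pecam1 and no Ptprc or C1qb UMI gave 45.3%, 32.2%, 60.3%, 30.4% and 44.7%. S100a6 UMIs were thus also found in Pecam1-marked cells, and their source there was not tested.

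Lcn2 went the other way. It stood at 448, 71.4, 617, 525 and 229 CPM in the members and at 2044, 504, 809, 2001 and 1617 CPM in Havcr1-zero tubule cells, lower in the members of each library (median log2 ratio -2.19). At 1000 UMIs per cell, an Lcn2 UMI was found in 25.1% of members on day 1, 13.6% on day 2, 18.8% on day 4, and 23.2% and 9.90% on day 7. Pecam1-marked cells gave 36.5%, 12.4%, 14.7%, 28.6% and 10%, in the same range, and the source of Lcn2 in the members was not tested. Havcr1-zero tubule cells gave 60.4%, 19.0%, 26.9%, 54.9% and 39.3%. Krt8 did not separate the populations: it stood at 1101, 480, 428, 1024 and 579 CPM in the members and 1238, 478, 452, 1204 and 763 CPM in Havcr1-zero tubule cells. Of the 3 markers besides Havcr1, then, S100a6 was higher, Lcn2 lower and Krt8 about equal against Havcr1-zero tubule cells. Vcam1-positive cells held less Lcn2 than the members in each library, at 212, 10.7, 126, 338 and 187 CPM. They held more S100a6 except in the second day 7 library (3873, 4626, 3839, 1417 and 1520 CPM). The members are called here by their rule.

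Cells were also ordered by their Havcr1 UMIs, which the rule used, so the levels along this order are a description and no separate support. On day 1, Lcn2 stood at 1484 CPM in cells with 1 Havcr1 UMI, 836 with 2 and 346 with 3 or more, and S100a6 at 840, 970 and 2285 CPM. On day 4, Lcn2 stood at 1035, 1098 and 336 CPM, and S100a6 at 558, 1141 and 3390 CPM. In each of the 5 libraries, cells with 3 or more Havcr1 UMIs had less Lcn2 and more S100a6 than cells with 1. Depth differed along this order, with medians of 1255, 1450.5 and 2843 UMIs on day 1 and 3435, 1860 and 3929 on day 2. Cells with 3 or more Havcr1 UMIs were the deepest in each library, and the part of depth was not tested.

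**Figure D2:**
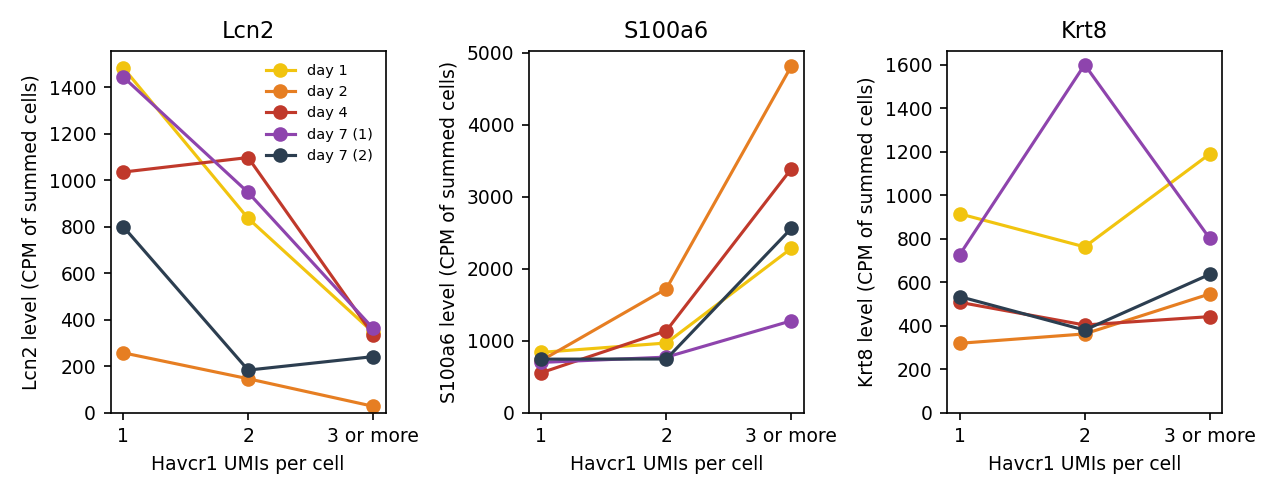
Level of Lcn2, S100a6 and Krt8 (CPM of the summed cells, linear axes from 0) in cells with 1, 2, or 3 or more Havcr1 UMIs, 1 line per library of days 1, 2, 4 and 7. From 1 to 3 or more UMIs, Lcn2 goes from 1484 to 346 CPM on day 1 and S100a6 from 840 to 2285 CPM, while Krt8 has no common order.

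The nephron segment of the cells was proximal by their transcripts. At 1000 UMIs per cell, at least 2 UMIs of proximal S1 and S2 genes (the Kap gene left out) were found in 95.8% of members on day 1, 100% on day 2, 92.3% on day 4, and 83.9% and 90.1% on day 7. Leukocyte-marked cells gave 73.1%, 71.7%, 72.9%, 45.2% and 29.7%, below the members in each library. A UMI of Ptprc or C1qb sufficed for that mark, so such cells can include tubule cells. Their Lyz2 level was 497 CPM on day 1, against 10307 and 11365 CPM on day 7. How many of them were tubule cells was not tested, so they are no clean background for proximal genes. Havcr1-zero tubule cells gave 62.6%, 86.9%, 78.2%, 25.5% and 22.0%. The 10 general tubular genes separated less well: a UMI of any of them was found in 54.6% of thinned day 1 members and 56.2% of thinned day 1 leukocyte-marked cells, but in 81.2% against 27.6% in the second day 7 library.

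The members were compared with Havcr1-zero tubule cells of the same library. Genes whose average log2 CPM reached 6 were examined, and one was counted when its ratio had the same sign in all 5 libraries and a median of at least 2-fold. Of 2927 genes examined, 120 (4.1%) were counted as higher and 119 (4.07%) as lower. Without the day 4 library, 194 were counted as higher. With both populations thinned to 1000 UMIs, 71 of 2879 were counted as higher and 111 as lower. No test was made, because Havcr1 chose both populations. The comparison cells hold all nephron segments, and segment and injury state cannot be told apart in these ratios.

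The 12 genes with the highest median ratios are named here. Slc6a18, a neutral amino acid transporter, stood at 133, 135, 180, 99.8 and 199 CPM in the members and at 17.5, 21.8, 94.9, 8.48 and 25.7 CPM in Havcr1-zero cells (median log2 ratio 2.89). Tmigd1, an adhesion protein of the proximal epithelium, had a median log2 ratio of 2.71. Slc27a2, which takes up and activates long-chain fatty acids, had 2.62, and Gsta2, a glutathione transferase, 2.53. Cyp2j13 (a cytochrome P450) had 2.51, Guca2b (the peptide uroguanylin) 2.42, Mettl7b 2.39 and Ugt2b37 (a glucuronosyltransferase) 2.38. The organic cation transporter Slc22a2 had 2.35, the phosphate and urate transporter family member Slc17a3 2.30, the cystine transport subunit Slc3a1 2.22 and the organic anion transporter Slco1a1 2.21. For each of these 12 genes the day 4 ratio was below the ratios of day 1 and of the second day 7 library, and for Slco1a1 on day 4 the levels were nearly equal, at 232 and 222 CPM.

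Of the thick ascending limb list, 6 of the 7 genes abundant enough were counted as lower, among them Umod (uromodulin, median log2 ratio -1.95), Slc12a1 (the sodium-potassium-chloride cotransporter, -2.19) and Egf (-2.54). All 3 abundant genes of the distal convoluted tubule were counted as lower: Calb1 (a calcium buffer, -3.50), Slc12a3 (the thiazide-sensitive cotransporter, -2.78) and Tmem52b (-2.70). All 4 of the principal cell were too: Fxyd4 (-2.89), Hsd11b2 (which inactivates glucocorticoids, -2.79), Aqp2 (the vasopressin-regulated water channel, -2.76) and Aqp3 (-2.40). Of 21 abundant proximal S1 and S2 genes, 3 were counted as higher, Slc27a2, Keg1 (1.79) and Slc13a1 (the sulfate transporter, 1.61), as were 0 of 5 abundant S3 genes and 1 of 12 of fatty acid oxidation. The median over those 21 genes was 1.31, against 0.10 over all genes counted, and by library it ran 1.58, 0.23, -0.26, 2.30 and 1.47, below 0 on day 4.

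Other lower genes included S100g (a distal calcium carrier, -3.03), Hoxd8 (-3.00), Cdo1 (cysteine dioxygenase, -2.85), Tspan1 (-2.79) and Sprr2f (-2.77), whose family has near-identical copies. Hbb-bt (-2.94) and Hbb-bs (-2.88), also near-identical, encode beta globin of red cells. The 4 globin genes of the red cell list together stood at 1258, 23.0, 204, 1198 and 23.7 CPM in the members and at 1701, 161, 1174, 1604 and 351 CPM in Havcr1-zero cells. Globin thus moved by library in both populations, and the part of red cell RNA in the other ratios was not tested.

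**Figure D3:**
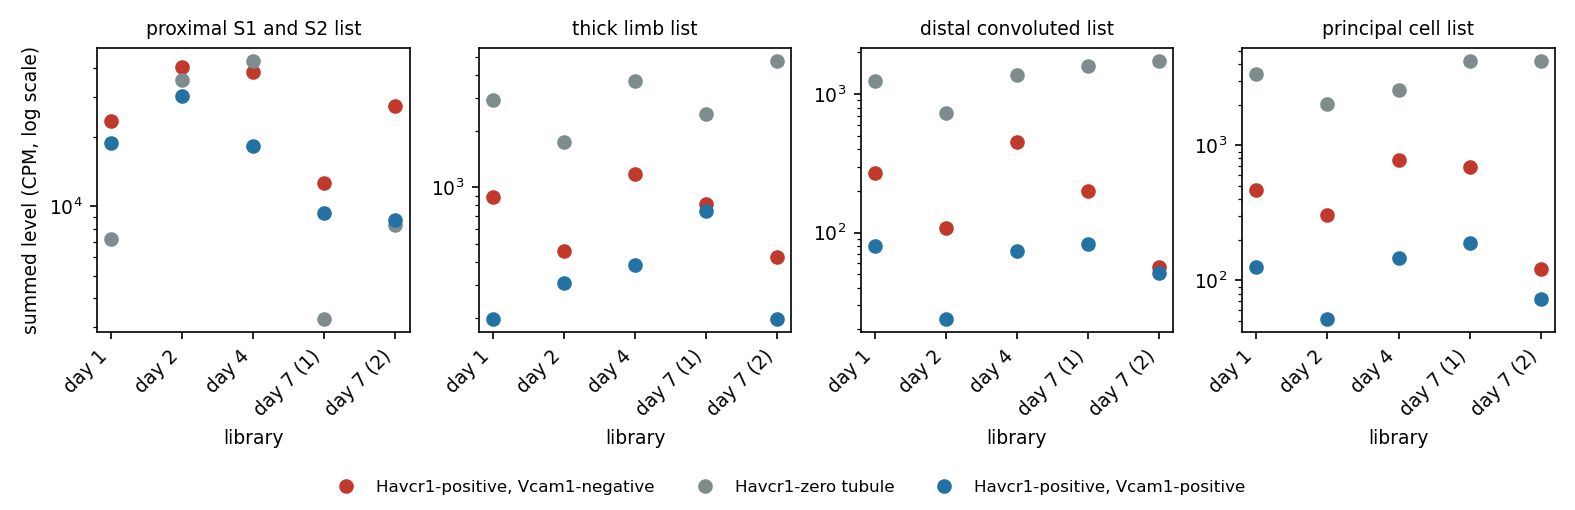
Summed level (CPM, log axis) of the proximal S1 and S2, thick limb, distal convoluted and principal cell gene lists in each library of days 1, 2, 4 and 7, for Havcr1-positive Vcam1-negative, Havcr1-zero tubule and Havcr1-positive Vcam1-positive cells. The principal cell list stands at 465 CPM in Vcam1-negative and 3353 CPM in Havcr1-zero cells on day 1, while the proximal list is nearly equal on day 4 (38374 and 43095 CPM).

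Distal lists were set beside the same Pecam1-marked cells. At 1000 UMIs per cell, a thick limb UMI was found in 34.3%, 31.8%, 41.0%, 35.7% and 22.8% of members and in 41.2%, 20.8%, 30.9%, 39.3% and 18.7% of Pecam1-marked cells, above them on days 2 and 4 and in the second day 7 library, with overlapping intervals. Leukocyte-marked cells are set beside this list for day 4 only, where the interval of the members (36.2 to 45.9%) lay above theirs (29.6 to 36.0%). This says nothing about the other days. A principal cell UMI was found in 27.4%, 15.9%, 25.1%, 30.4% and 12.9% of members, below the 48.0%, 29.7%, 32.4%, 46.4% and 28.0% of Pecam1-marked cells.

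Requiring at least 2 proximal UMIs of both populations, a choice made after seeing the data, lowered the counts of genes. It did not leave proximal cells alone, since 87.3% of day 1 Havcr1-zero cells met it. Of 2921 genes, 74 (2.53%) were then counted as higher and 104 (3.56%) as lower, and the median of the proximal list was 0.28. With proximal UMIs required, Slc6a18 had a median log2 ratio of 2.60 and Tmigd1 2.07, and Hsd11b2 stood at -2.74. The median of the thick limb list was -2.15 (-2.19 without the requirement) and that of the principal cell list -2.72 (-2.77). Segment and injury state cannot be told apart in these ratios either.

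The injury lists held genes counted in both directions, against 4.1% of all genes counted as higher and 4.07% as lower. Of 10 abundant genes of the secreted injury list, 3 were counted as lower: Clu (the chaperone clusterin, median log2 ratio -2.40), Lcn2 and Cst3 (cystatin C, -1.26). Clu stood at 1945, 523, 2191, 2983 and 463 CPM in the members and at 10291, 4531, 4802, 12024 and 7136 CPM in Havcr1-zero cells. Of 17 abundant keratin and cytoskeleton genes, Vim (vimentin, 1.78) was counted as higher, and Krt7 and Krt19 (both -2.44) and Tmsb4x (-1.67) as lower. Of 12 S100, annexin and galectin genes, S100a6 and Lgals1 (galectin-1, 1.94) were counted as higher, and Anxa1 (-2.07) and S100a1 (-1.43) as lower. Lgals1 stood at 1462, 1913, 1396, 898 and 1451 CPM in the members and at 381, 444, 383, 288 and 222 CPM in Havcr1-zero cells, with no overlap. Of 13 abundant developmental genes, Cd24a (a surface glycoprotein, -1.95) and Hes1 (a Notch target, -1.53) were counted as lower and none as higher. Of 8 abundant NRF2, ferritin and metallothionein genes, Mt1 (-1.26) and Mt2 (-1.66) were counted as lower and none as higher, with a list median of 0.29. With proximal UMIs required of both populations, 1 of the 8 was counted as lower.

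The members were next set beside the Vcam1-positive cells. Of 3023 abundant genes, 31 (1.03%) were counted as higher and 28 (0.926%) as lower by the same rule. Of 10 abundant NF-kB and chemokine genes, 5 were counted as lower and none as higher, and of 21 proximal S1 and S2 genes, 5 were counted as higher and none as lower. This contrast was added after seeing the data and is a description. The chemokine Ccl2, which draws monocytes, stood at 14.2, 33.2, 206, 248 and 371 CPM in the members and at 146, 439, 1187, 1015 and 1149 CPM in the Vcam1-positive cells, lower in each library (median log2 ratio -2.52, and -1.67 when thinned). Cxcl10 (-2.23), Cxcl2 (-2.18) and Cxcl1 (-1.55), further chemokines, and Krt20 (a keratin, -1.91), Ubd (-1.89), Plat (tissue plasminogen activator, -1.67) and the hyaluronan receptor Cd44 (-1.41) were lower as well. Thinned, the ratio of Cxcl10 was -1.60 and that of Ubd -1.23.

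Counted as higher in the members than in Vcam1-positive cells were Kap (androgen-regulated and abundant in mouse proximal tubule, 2.07), Ces1f (a carboxylesterase, 2.21), Pck1 (the gluconeogenic PEP carboxykinase), Cyp2e1 (1.90) and the urate transporter Slc22a12 (1.78). The members of the 2 day 7 libraries were far apart in these genes, with Kap at 1711 and 14146 CPM and Slc22a12 at 29.6 and 273 CPM. Lcn2, with the levels given above, was counted as higher as well. The distal genes Hsd11b2 (2.25), Umod, Aqp2 (1.99) and Slc12a1 (1.78) were counted as higher too. For the thick limb genes Umod and Slc12a1 the shares in Pecam1-marked cells are those given above for their list. The source of the Hsd11b2 and Aqp2 transcripts in the members was not tested. A principal cell UMI was found in 13.5%, 13.5%, 12.5%, 18.5% and 8.71% of thinned Vcam1-positive cells, and the shares of members, given above, were also below those of Pecam1-marked cells. Hsd11b2 stood at 181, 128, 385, 473 and 62.3 CPM in the members, between the Vcam1-positive cells (56.6, 16.1, 65.9, 98.1 and 34.3 CPM) and the Havcr1-zero cells (1569, 882, 1254, 2884 and 2310 CPM). The members were shallower than Vcam1-positive cells. After thinning, the median log2 ratio was 1.68 for Hsd11b2, 1.44 for Ces1f and 1.18 for Slc22a12.

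Within the members, the change with time was tested over the 5 libraries of days 1, 2, 4 and 7. Counts were summed per library and fitted against log2 of the day, so that a coefficient is the log2 change per doubling of the day. In edgeR, with the quasi-likelihood test and Benjamini-Hochberg adjustment, 32 of 7594 genes (0.421%) passed the threshold of 0.05, 19 rising (0.25%) and 13 falling (0.171%), and 744 had an unadjusted p under 0.05. Some proliferation genes fell, and some genes of class II antigen presentation and the chemokines Ccl5 and Ccl2 rose. The Vcam1-positive share of Havcr1-positive cells also rose over these days, as given above. From day 4 on, Ubd, Cd74, Ccl5 and Ccl2 were higher in Vcam1-positive cells than in the members. On day 4, Ubd stood at 862 against 232 CPM and Ccl5 at 1510 against 358 CPM. Top2a, which fell, was also higher in Vcam1-positive cells of each library. The part of members with unsampled Vcam1 in the trends was not tested. DESeq2 called 100 genes, 29 of the 32 among them.

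Days 1, 2 and 4 have 1 library each, so day and library cannot be told apart there. The p-values rest only on the spread between these 5 libraries, which edgeR estimated partly across genes. No gene passed without the second day 7 library (578 at an unadjusted p under 0.05), while 179 passed without day 1, 98 without day 2, 23 without day 4 and 26 without the first day 7 library. When a single Havcr1 UMI sufficed, 2 genes passed. With 10 further genes of other cell types excluded, 18 rose and 6 fell, Top2a, Mki67, Lig1, Smc2 and Pcna among them, while Cenpf (adjusted p = 0.0767) and Tfrc (adjusted p = 0.0858) no longer passed in edgeR. Over all alternatives on the log2 scale of the day, the coefficient of Cenpf lay between -1.02 and -0.77 and that of Tfrc between -1.04 and -0.63. Without day 4, 19 rose and 4 fell.

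Top2a, the topoisomerase of dividing cells, stood at 380 CPM on day 1, 99.5 on day 2, 63.0 on day 4, and 25.9 and 11.9 on day 7. It fell by 1.52 per doubling (SE 0.17, adjusted p = 0.00826 in edgeR). Mki67, the Ki-67 proliferation antigen, stood at 217, 181, 76.5, 29.6 and 17.8 CPM and fell by 1.21 (SE 0.20, adjusted p = 0.0357). For both genes each later day was lower than the one before, and the day 7 libraries were lowest.

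Genes of DNA replication and mitosis went with them. Lig1 (DNA ligase) fell with the day, Smc2 (a condensin subunit) by 0.96 per doubling, Cenpf (a kinetochore protein) by 0.85 and Pcna (the replication clamp) by 0.80, with edgeR adjusted p-values from 0.0147 to 0.0473. Tfrc, the transferrin receptor, fell by 0.90. Incenp and Atad2, below the abundance set for naming, also fell, as did a mitochondrial ribosomal RNA and a gene model without a name. Of 24 cell cycle genes tested, 4 fell (Top2a, Mki67, Cenpf and Pcna) and none rose, against 0.171% and 0.25% of all genes. Their median coefficient was -0.76, against 0.00 over all genes, and 0 of the 24 were positive. Ccnd1, cyclin D1 of the G1 phase, stood at 571, 645, 286, 225 and 172 CPM and did not pass in edgeR (adjusted p = 0.108), though it did in DESeq2.

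The share of members with a Top2a or Mki67 UMI was 33.8% on day 1, 44.4% on day 2, 15.5% on day 4, and 7.53% and 6.19% on day 7. At 1000 UMIs per cell it was 22.8%, 29.5%, 8.19%, 6.25% and 3.96%. Thinned Pecam1-marked cells gave 12.2%, 5.94%, 7.35%, 8.93% and 4.67%, and thinned Havcr1-zero tubule cells 9.20%, 4.07%, 4.79%, 6.32% and 4.73%. The members thus stood above both on days 1 and 2, and on day 7 their share was near or below both. Thinned Vcam1-positive cells gave 37.8%, 34.6%, 11.7%, 6.16% and 3.87%, and their Top2a level was 838, 233, 127, 35.0 and 49.99 CPM, also highest on day 1. In the test of the difference of trends, Top2a had a coefficient of -1.25 relative to Havcr1-zero tubule cells and did not pass (adjusted p = 0.127 in edgeR).

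**Figure D4:**
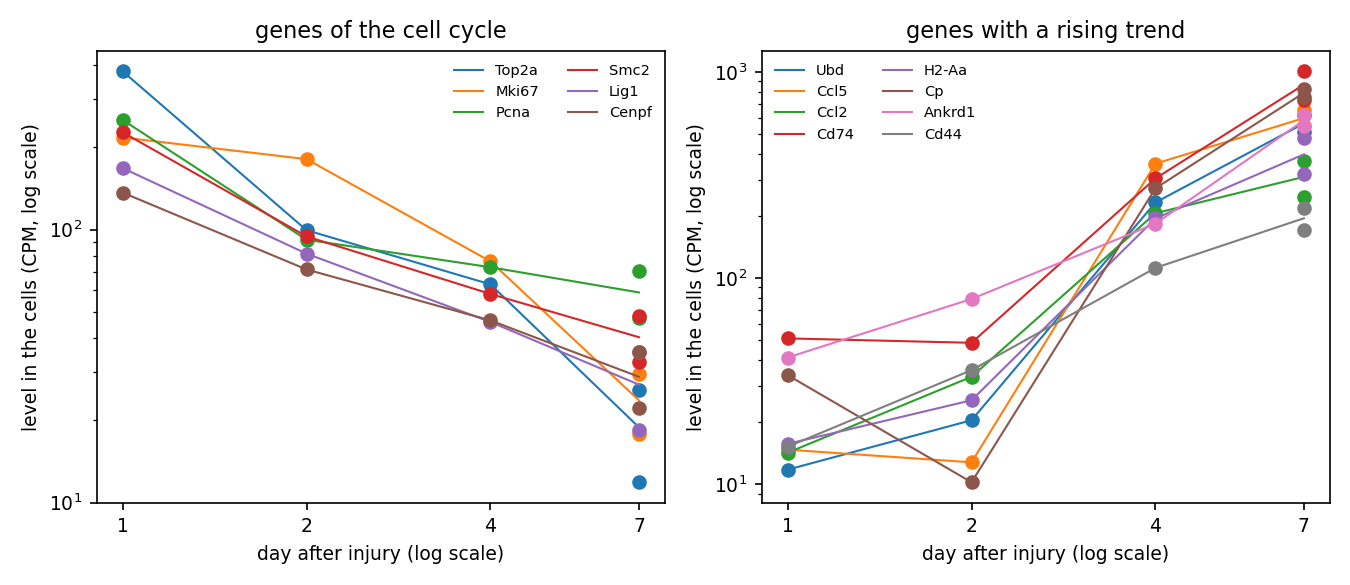
Level (CPM, log axis) of genes with falling (left) and rising (right) trends in Havcr1-positive Vcam1-negative cells against the day after injury (log axis). Points are libraries and lines join the day means. Top2a goes from 380 CPM on day 1 to 25.9 and 11.9 CPM on day 7, and Ubd from 11.8 to 510 and 614 CPM.

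Ubd, a ubiquitin-like protein induced by interferon, stood at 11.8, 20.4, 232, 510 and 614 CPM and rose by 2.01 per doubling (SE 0.21, adjusted p = 0.00826 in edgeR). Cd74, the invariant chain of class II molecules, stood at 50.9, 48.5, 304, 728 and 1006 CPM and rose by 1.48 (SE 0.21, adjusted p = 0.0147). Levels of both were low on days 1 and 2, intermediate on day 4 and high on day 7, with no overlap between days 1 and 2 and the later days.

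The class II chains rose with them. H2-Aa stood at 15.7, 25.5, 195, 318 and 478 CPM and rose by 1.67, H2-Eb1 by 1.63 and H2-Ab1 by 1.17. In Havcr1-zero tubule cells, H2-Aa stood at 30.1, 24.1, 151, 216 and 182 CPM, also higher from day 4 on. The difference of trends did not pass in edgeR for H2-Aa (0.68, adjusted p = 0.379), H2-Eb1 (0.43, adjusted p = 0.73), Cd74 (0.53, adjusted p = 0.728) or Ubd (0.66, adjusted p = 0.749). H2-Q7, a class I gene of a family of near-identical copies whose reads cannot be assigned with certainty, rose as well. Of 19 genes of antigen presentation and interferon response, 5 rose and none fell, against 0.25% of all genes rising. The class I genes B2m (0.67 per doubling, adjusted p = 0.183) and H2-K1 (0.81, adjusted p = 0.0638) did not pass in edgeR, but passed in DESeq2.

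Leukocyte transcripts moved with these genes. The share of leukocyte-marked cells in the library was 7.68% on day 1, 12.6% on day 2, 16.9% on day 4, and 41.5% and 41.9% on day 7. Of the 10 macrophage genes, 9 were in the tables, and their summed level in the members was 55.8, 25.5, 335, 1057 and 306 CPM, against 211, 99.1, 604, 1425 and 388 CPM in Havcr1-zero tubule cells. Of the macrophage complement genes, C1qa stood at 1.47, 0, 5.51, 44.4 and 20.8 CPM and C1qc at 0, 0, 6.73, 70.2 and 14.8 CPM in the members, highest on day 7, and C1qc passed in DESeq2 but not in edgeR (adjusted p = 0.0707). Lyz2, a lysozyme of myeloid cells, stood at 26.4, 17.9, 224, 761 and 199 CPM in the members and did not pass in edgeR (1.53 per doubling, adjusted p = 0.0629), but passed in DESeq2. All 5 macrophage genes tested had a positive coefficient (median 1.53) and an unadjusted p under 0.05 in edgeR, as had 744 of all 7594 genes for that p in either direction. Other lists in the members were these: the 6 neutrophil genes, mostly through Lcn2 with the levels given above, summed to between 117 and 723 CPM, the 5 podocyte genes to between 11.9 and 116 CPM, the 7 T and NK cell genes summed to between 2.55 and 40.7 CPM, the 8 endothelial genes to between 17.9 and 112 CPM, and the 9 fibroblast genes to between 12.8 and 49.9 CPM. The part of these transcripts in the rising genes was not tested.

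The values of leukocyte-marked cells stand beside those of the members. Cd74 counts per Lyz2 count were 1.93, 2.71, 1.35, 0.956 and 5.06 in the members and 0.726, 0.415, 0.137, 0.187 and 0.325 in leukocyte-marked cells of the same libraries. Vcam1-positive cells gave 4, 20.3, 13.8, 3.33 and 17.9, above the members in each library. Havcr1-zero tubule cells gave 0.323, 0.927, 0.473, 0.320 and 0.900, below the members in each library. On day 7, Ubd stood at 117 and 118 CPM in leukocyte-marked cells and at 510 and 614 CPM in the members. At 1000 UMIs per cell, a Ubd UMI was found in 28.6% and 31.7% of day 7 members, 7.14% and 5.33% of Pecam1-marked cells and 7.99% and 4.41% of leukocyte-marked cells. A Cd74 UMI was found in 27.5% of thinned day 4 members, against 23.5% of Pecam1-marked cells (interval 14.1 to 35.4%) and 44.7% of leukocyte-marked cells. The day 4 share of members thus lay inside the interval of Pecam1-marked cells. On day 7 a Cd74 UMI was found in 42.9% and 59.4% of members, 26.8% and 23.3% of Pecam1-marked cells and 57.5% and 67.9% of leukocyte-marked cells. A Ccl5 UMI was found in 20.5% of day 4 members against 14.7% of Pecam1-marked cells (7.28 to 25.4%), and in 22.3% and 28.7% of day 7 members against 8.93% and 8%. For Lyz2, the thinned shares of day 7 members, 42.9% and 21.8%, were below those of Pecam1-marked cells, 51.8% and 27.3%. The source of Lyz2 in the members was not tested.

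Of the chemokines, Ccl5 and Ccl2 rose. Ccl5, which attracts T cells and monocytes, stood at 14.7, 12.8, 358, 543 and 650 CPM and rose by 1.99 per doubling (SE 0.30, adjusted p = 0.0222 in edgeR). Ccl2 rose by 1.57 (SE 0.21, adjusted p = 0.0147) from the levels given above. Relb, a subunit of NF-kB, rose by 1.20. Of 20 NF-kB and chemokine genes, these 3 rose and none fell, against 0.25% and 0.171% of all genes. Cxcl1 stood at 54.8, 189, 324, 99.8 and 273 CPM and did not pass, with the first day 7 library below day 2.

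Single members of other groups rose. Fst (follistatin, an activin antagonist) stood at 5.88, 0, 30.6, 362 and 166 CPM, listed without a count in the 54 day 2 cells, and rose by 2.07. Cp (ceruloplasmin) stood at 33.8, 10.2, 272, 828 and 754 CPM and rose by 1.69, the single riser among 14 secreted injury genes. Apoe (a lipid carrier abundant in macrophages) rose by 1.41, Ptgds (prostaglandin D synthase) by 1.33 and Ankrd1 (a target of YAP signalling) by 1.30. Ankrd1 stood at 41.1, 79.1, 184, 621 and 543 CPM. Cd44 stood at 15.2, 35.7, 112, 170 and 220 CPM and rose by 1.25, the single riser among 19 profibrotic and matrix genes. Basp1, Serpinb6b, Bst1 and H2-M2 also passed with a rising coefficient.

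Genes that mark neutrophils were also among those that fell. S100a9 stood at 128, 20.4, 9.18, 3.70 and 0 CPM and S100a8 at 107, 15.3, 7.34, 14.8 and 2.97 CPM, and both fell. They were low-count genes in the members, and S100a9 stood at 216, 83.6, 11.98, 18.0 and 9.08 CPM in Havcr1-zero tubule cells and at 591, 541, 20.2, 31.6 and 20.1 CPM in leukocyte-marked cells, lower from day 4 on in all 3 populations. The mitochondrial share of the members also differed by day, with medians of 11.9%, 9.04%, 7.96%, 4.34% and 5.76%. Its part in the trends was not tested beyond a limit of 25%, with which 36 genes passed.

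Many injury and identity genes of the lists had no call. Over all genes, 744 of 7594 had an unadjusted p under 0.05, which the counts below are to be read against. Among 24 proximal S1 and S2 genes none passed in edgeR, 8 had an unadjusted p under 0.05 and 1 (Gpx3) passed in DESeq2. Gpx3, the secreted glutathione peroxidase, stood at 9581, 10974, 6597, 3452 and 3259 CPM. The S1 and S2 median was -0.29. Of 9 proximal S3 genes none passed in edgeR, 8 had a positive coefficient (median 1.05), 5 had an unadjusted p under 0.05, and Napsa, an aspartic protease, passed in DESeq2. Among 19 developmental genes none passed in edgeR, 3 had an unadjusted p under 0.05 and 1 (Pax8) passed in DESeq2. Sox4, a developmental transcription factor, stood at 172, 51.0, 156, 340 and 321 CPM in the members, below the Havcr1-zero cells in each library (397, 229, 189, 520 and 517 CPM). Among 21 keratin and cytoskeleton genes none passed in edgeR, 9 had an unadjusted p under 0.05 and 2 (Cald1 and Cnn2) passed in DESeq2.

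S100a6 did not pass (-0.32 per doubling, adjusted p = 0.723), nor did Krt8 (-0.20, adjusted p = 0.794) or Lcn2 (0.01, adjusted p = 0.997). Of the 16 fatty acid oxidation genes, none passed in either tool and 0 had an unadjusted p under 0.05. Of 13 glycolysis genes none passed in either tool and 1 had an unadjusted p under 0.05. Of 11 p53 and arrest genes none passed in either tool and 3 had an unadjusted p under 0.05; Cdkn1a, the p21 inhibitor, stood at 78.8, 23.0, 88.7, 185 and 160 CPM. A call that was not made does not show that a level was constant.

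Whether the trend differed between the members and Havcr1-zero tubule cells was tested with an interaction term over the same libraries. Of 13301 genes, 3 passed (0.0226%), all with a more rising trend in the members, and 782 had an unadjusted p under 0.05. Ccl2 stood at 89.2, 41.9, 76.3, 58.8 and 23.2 CPM in Havcr1-zero tubule cells, above the members on days 1 and 2 and below them from day 4 on, and its trends differed by 2.03 per doubling (SE 0.23, adjusted p = 0.0169 in edgeR). Ccl5 stood at 37.8, 7.30, 133, 130 and 126 CPM in Havcr1-zero cells, and its trends differed by 1.24 (SE 0.13, adjusted p = 0.0169). Cald1, the actin-binding caldesmon, stood at 49.9, 58.7, 80.1, 418 and 481 CPM in the members and at 107, 59.8, 24.9, 116 and 78.6 CPM in Havcr1-zero cells, a difference of 1.23 (SE 0.14, adjusted p = 0.0169). Vcam1-positive cells also had more Ccl5 and Cald1 on day 7 than on day 1. Ccl5 stood there at 6.29, 25.7, 1510, 1777 and 2367 CPM and Cald1 at 86.5, 39.6, 144, 527 and 630 CPM, so these levels are not particular to the members. The part of members with unsampled Vcam1 in the differences of trends was not tested.

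These calls rest on the libraries used: 0 genes passed without day 1 (886 at an unadjusted p under 0.05), 2 without day 2, 19 without day 4, and 1 without either day 7 library. On a linear scale of the day, none of the 3 passed. Leukocyte-marked cells also had Ccl2 (335, 1400, 1005, 460 and 463 CPM), higher than the members in each library, and Ccl5 (167, 153, 361, 407 and 493 CPM), below the members on day 7. With 10 further genes of other cell types excluded from both populations, Ccl2 had a difference of 1.65 (adjusted p = 0.136) and Ccl5 of 0.93 (adjusted p = 0.18).

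**Figure D5:**
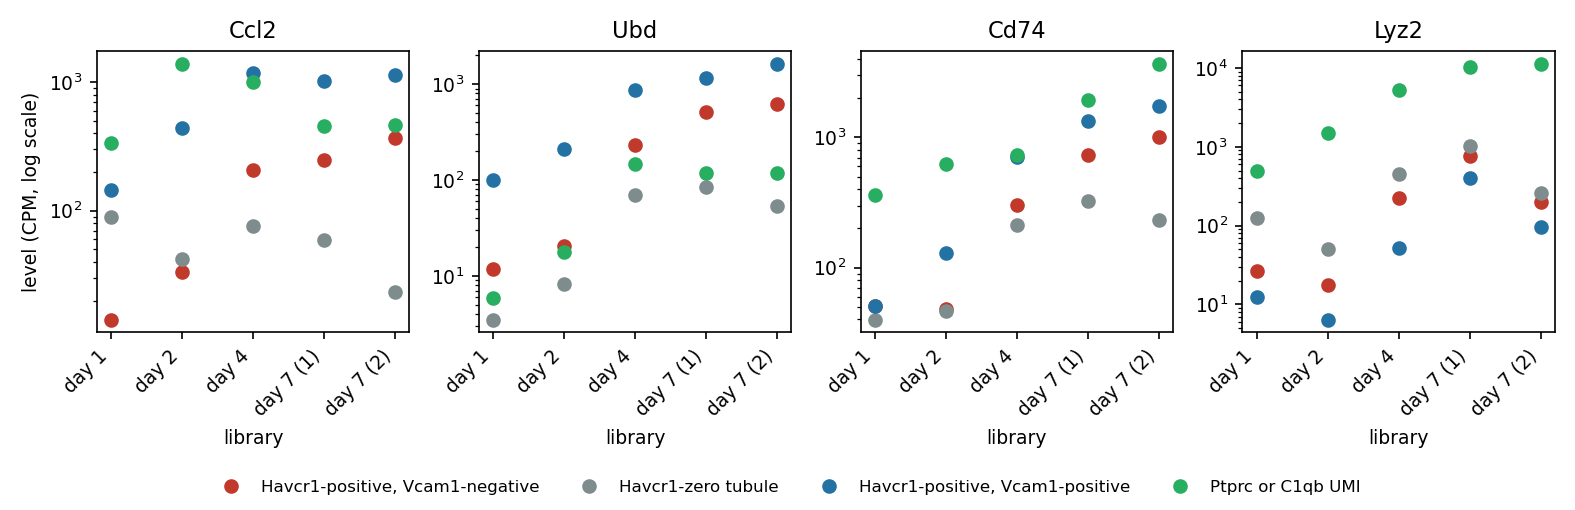
Level (CPM, log axis) of Ccl2, Ubd, Cd74 and Lyz2 in each library of days 1, 2, 4 and 7, for Havcr1-positive Vcam1-negative, Havcr1-zero tubule, Havcr1-positive Vcam1-positive and leukocyte-marked cells (a Ptprc or C1qb UMI). On day 7 the Vcam1-negative cells hold more Ubd (510 and 614 CPM) than leukocyte-marked cells (117 and 118 CPM), while Lyz2 is highest in the leukocyte-marked cells.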

How the data were processed

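Drop-seq libraries of mouse kidney cortex were measured, 1 table per library. Each deposited table holds counts for gene symbols by cell barcodes, made by the authors with Bowtie2 2.2.7 and the mm10 genome per the submitters' processing notes; the annotation and the counting step are not given in the sources used here. The counts were whole numbers and were read as UMIs, although no label says so. The 10 tables held 64803 barcodes, with 7091848 to 31632205 UMIs per library. The filter on genes removed 10786 barcodes, all of day 11, and the filter on mitochondrial UMIs removed 1220. Median UMIs per kept cell lay between 1244 and 2661.5.

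The members, gene lists and tests were chosen with earlier results of these data known. Of 424 list genes, 1 was absent from the tables. Counts were summed per library and population and fitted with edgeR 4.0.16 in R 4.3.3 (TMM scaling, its filter on low counts), on the 5 libraries with at least 20 members. The residual degrees of freedom were 3, and the SE restates the test. The quasi-likelihood test added prior degrees of freedom taken across genes, 7.15 for the trend and 7.3 for the difference of trends. DESeq2 1.42.0 was an alternative. Fits were tested on simulated counts. The 6 genes of the rule stayed out of the counts of genes. Ratios between populations are log2 ratios of CPM within a library, with a small prior count. Intervals are exact (Clopper-Pearson, 95%), and with the limit of 3 counts that a count of 0 allows they cover counting error only, so deeper libraries give tighter values. Doublets were kept. Scrublet scores (scanpy 1.11.5) were used in an alternative that removed the highest 5% of each library. Alternatives covered the Havcr1 threshold, the mitochondrial limit, depth, scaling, filtering, the scale of the day and each library left out.

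Named genes were, per direction, up to 12 with the largest coefficient or ratio at an average log2 CPM of at least 6, up to 4 called and 2 not called genes per list by abundance, and the 4 markers of the label. Mitochondrial genes and Gm or Rik models were not named. Genes named outside this rule, among them those below the abundance limit and list genes given with levels, were chosen after their values were seen. Of 110 named genes, 109 matched GENCODE M21 and 35 overlap a gene on the opposite strand; since the use of strand in counting is not given, reads of such pairs may be mixed. Of 52735 barcodes, 62 occurred in more than 1 library, and 4 of the 1455 member barcodes occurred in another library.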

Additional observations from a re-analysis of the deposited data

Results flagged for a closer look

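The trend with the day differed between Havcr1-positive Vcam1-negative cells and Havcr1-zero tubule cells of the same libraries for 3 genes, by the interaction term in edgeR's quasi-likelihood test. The difference in log2 change per doubling of the day was 2.03 for Ccl2, 1.24 for Ccl5 and 1.23 for Cald1, each with an adjusted p of 0.0169. No group held enough libraries to look for a single library far from the others.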

How the results depend on the processing

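The share of cells depended on the Havcr1 threshold. With 1 UMI it was 32.5% on day 1, 4.60% on day 2, 20.2% on day 4, 8.95% and 4.89% on day 7, and 0.651% in the control, day 11 and day 14 libraries together. With 3 UMIs the values were 10.8%, 0.661%, 4.75%, 2.84%, 1.55% and 0.0134%. Thinning to 1000 UMIs gave 13.9% on day 1, 9.85% on day 4, 5.75% and 3.07% on day 7, and 0.0114% in the control and late libraries. Excluding 10 further genes gave 11.5% on day 1, 6.76% on day 4 and 3.04% in the first day 7 library.

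The trend within the members gave 100 genes in DESeq2, 312 without a filter on low counts, 2 with 1 Havcr1 UMI and 58 with 3. Leaving out each library in turn gave 0 to 179 genes. The difference of trends gave 8 genes in DESeq2, 14 without the filter, 1 on a linear scale of the day, 1 with 1 Havcr1 UMI, 13 with 3 Havcr1 UMIs, and 0 to 19 when a library was left out. The genes at least 2-fold higher than in Havcr1-zero cells numbered 71 after thinning and 74 with proximal UMIs required, and 86 to 194 when a library was left out; the proximal requirement and, for this ratio, the libraries left out and the removal of doublets were chosen after seeing the data. The cause was not tested.

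For the 32 genes with a trend, 356 of 473 values under alternatives kept the call, 117 lost it and 0 turned direction. No paired analysis was possible because pairing days by replicate number needs replicated days, while days 1, 2 and 4 have 1 library each and the replicated days 11 and 14 held too few of these cells. The difference of trends has the library as a term, since both populations come from the same libraries. The planned comparisons of days 11 and 14 with day 7 were not run for the same reason. Depth limits Vcam1-negative calls, since a cell with few UMIs can miss the gene.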
